A study of Mus musculus with 36 samples.

Results

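The response of WT mice to a forced swim was read 4 h after the swim in ribosome-bound RNA of cortical pyramidal neurons. It rests on 5 libraries of swum WT mice and 4 libraries of naive WT mice (replicates 4 to 7), picked by their labels for genotype, treatment and cohort, 9 of the 36 libraries of the series. All 9 belong to cohort 2. Mice of both groups carried Shank3(+/+);HA-Rpl22(f/+);Camk2a-Cre(+/-) on the strain C57BL6JL, so naive and swum mice alike had the tagged ribosomal protein and the Cre driver. The extraction protocol of the labels writes HA-Rpl22(f/f) instead. The swum mice were put in water at 25 °C, for 5 min by one label field and 6 min by another, and naive mice stayed in their home cages. The labels give neither age nor sex. The other libraries come from mice killed 1 h after the swim, from naive mice of cohort 1, and from mice with the mutated allele Shank3(ΔC/+) in the same design.

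RiboTag attaches an HA epitope to the ribosomal protein Rpl22 in cells that express Cre. Camk2a-Cre is active in excitatory forebrain neurons, and an anti-HA antibody pulls their ribosomes and the RNA bound to them out of a whole-cortex lysate. RNA of other cells can stick to such a pull-down. A forced swim is an acute stressor that excites cortical neurons and raises corticosterone. Excited neurons first transcribe a rapid wave of transcription factor genes such as Fos, Egr1 and Nr4a1, and then a delayed wave of effector genes such as Homer1, Plk2 and Bdnf that act at synapses. Corticosterone acts through the glucocorticoid receptor on genes such as Fkbp5, Sgk1 and Per1.

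The libraries of swum mice were deeper and differed in how counts fell on the 2 strands. Total counts were 1.49, 1.79, 2.04, 1.95 and 3.52 M (M, 1e6 counts) in WT 4 h libraries, against 1.19, 0.957, 1.58 and 0.998 M in naive libraries. The means were 2.16 ± 0.789 M (SD, n = 5) at 4 h and 1.18 ± 0.285 M (SD, n = 4) in naive mice (exact two-sided permutation p = 0.0317). Rows with at least 1 count numbered 16523 to 18785 in WT 4 h libraries and 14086 to 15738 in naive libraries. Swum replicate 5 was the deepest library. Without it the difference of the means was 0.634 M against 0.975 M with it (exact two-sided permutation p = 0.0571), and leaving out any library other than swum replicate 1 or naive replicate 6 also moved p above 0.05.

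Each row of the count table was classed by the GENCODE annotation of the mm10 build. An antisense row is a row that is not protein-coding and whose exon overlaps an exon of a protein-coding gene on the opposite strand. The other classes are rows with some other gene opposite and rows with no gene opposite. Of all counts on antisense rows and their coding partners, a certain percent lay on the coding rows, and this percent is called the pair share. It was 25.6%, 21.1%, 27.3%, 26.9% and 35.9% in WT 4 h libraries, against 16.1%, 16.6%, 18.2% and 19.5% in naive libraries. The groups did not overlap, with swum replicate 2 and naive replicate 7 nearest to each other. The means were 27.4% ± 5.37 (SD, n = 5) at 4 h and 17.6% ± 1.55 (SD, n = 4) in naive mice (exact two-sided permutation p = 0.0159, the smallest that 5 against 4 libraries can give). Antisense rows took 18.5% to 30.7% of all counts at 4 h and 32.4% to 37.3% in naive libraries. Rows with no opposite gene took 19.2% to 32.6% at 4 h and 10.9% to 16.1% in naive libraries.

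**Figure D1:**
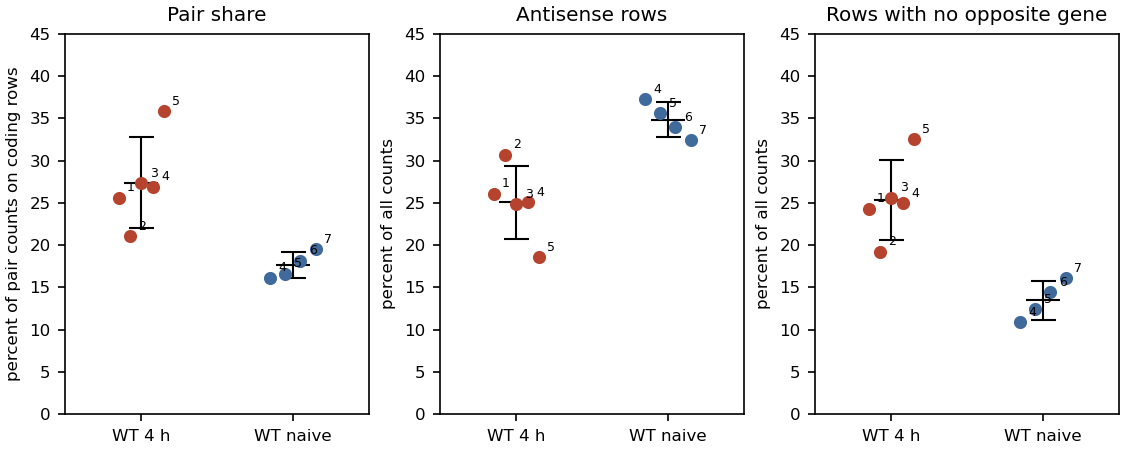
Percent of pair counts on coding rows (left), and percent of all counts on antisense rows (middle) and on rows with no opposite gene (right), for each WT 4 h and WT naive library; numbers beside points are replicate numbers, and bars are the mean ± SD. The pair share is 21.1% to 35.9% in WT 4 h libraries and 16.1% to 19.5% in naive libraries, and swum replicate 2 lies nearest to the naive libraries in all 3 panels.

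The kit marks the strand, but the sources used here do not say whether the counting used it. In 1101 of the 1555 pairs with at least 1000 counts over the series, the antisense row held more counts than the coding row. Which strand the reads on overlapping rows came from was not tested, and the values of every gene with another gene opposite are uncertain. Whether rows with no opposite gene hold reads of their own strand was not tested, so their values are uncertain as well. The 38139 such rows took 22.6% of the counts of the 9 libraries, and the 2714 antisense rows took 27.3%. Libraries held 0.957 to 3.52 M counts, where the labels state 15 M reads. The part of the shift in pair share in the changes of single genes was not tested beyond the other scalings and the fit with the pair share given here. The share of a library on each class also moves its scaling. TMM factors, which edgeR uses to scale libraries, were 1.20 to 1.72 at 4 h and 0.731 to 1.01 in naive libraries.

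Across all rows tested with edgeR, 29.0% of 11341 rows were called higher at 4 h and 26.9% were called lower, at a Benjamini-Hochberg adjusted p of 0.05. The classes moved apart. Of 1527 antisense rows, 5.44% were called higher and 70.5% lower. Of 4822 rows with no opposite gene, 38.4% were called higher and 11.6% lower. Of 4986 rows with some other opposite gene, 27.2% were called higher and 28.5% lower. The median log2 fold change was -1.15 for antisense rows, 0.14 for rows with another opposite gene and 0.58 for rows with no opposite gene, against 0.23 for all rows.

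These levels depend on how libraries are scaled. The median over all rows was 0.23 with TMM, 0.31 with the size factors of DESeq2, 0.98 with library size only, 1.43 with TMM factors taken from antisense rows and -0.23 with TMM factors taken from rows with no opposite gene. In the same order, 51.9%, 56.2%, 82.4%, 92.3% and 26.5% of the called rows were higher. A row called the same way under all 5 scalings is named so below. Such rows were 13.1% of all rows for higher and 5.72% for lower, and 17.5% and 0.892% of the rows with no opposite gene. The scalings differ in 1 factor per library, so they are not independent tests. Under all 5, 1484 rows were higher, as many as with TMM factors from rows with no opposite gene. Likewise 649 were lower, as many as with TMM factors from antisense rows. Fitted alone with their own scaling, 19.8% of 4266 rows with no opposite gene were called higher and 22.6% lower. With the pair share of each library as a covariate, 5.17% of all rows were called higher and 5.31% lower, and 3.92% and 2.41% of the rows with no opposite gene. The pair share does not overlap between the groups, so this fit also takes out swim effects that run along with it.

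**Figure D2:**
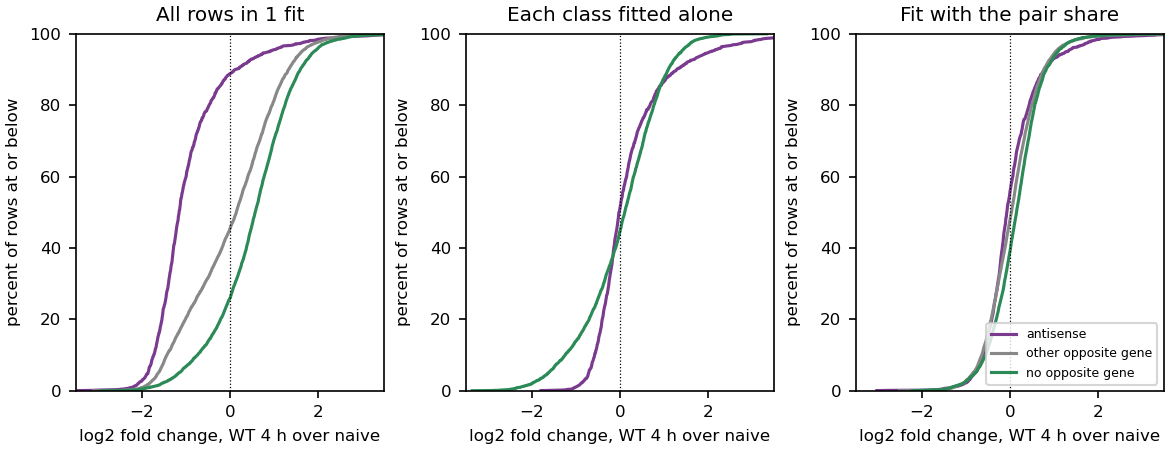
Cumulative percent of rows (vertical) by log2 fold change of WT 4 h over naive (horizontal), for antisense rows, rows with some other opposite gene and rows with no opposite gene, in the fit of all rows, with 2 classes fitted alone, and with the pair share as a covariate. In the fit of all rows the class medians are -1.15, 0.14 and 0.58, and with the pair share in the model they are -0.07, 0.04 and 0.15.

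Among rows with no opposite gene, the 10 rising genes with the smallest p that were called in both the fit of all rows and the fit of their class alone were Plk2, Mal2, Snap91, Homer1, Cltc, Xbp1, Tbl1x, Zyg11b, Spred2 and Polr2a. Of 4164 rows in both fits, 20.2% were called higher in both and 13.4% lower in both. All 10 were called higher under all 5 scalings and with the pair share. Passing all 5 scalings was nearly fixed by this choice. In the class 843 rows were higher in both fits and 842 under all 5. Snap91, the clathrin assembly protein of synaptic vesicle recycling, had 91.6, 74.3, 94.2, 84.6 and 126 CPM (counts per M counts, scaled by TMM) at 4 h, against 12.7, 19.7, 32.0 and 35.9 CPM in naive mice. Every swum library was above every naive one. Its log2 fold change was 1.87 (SE 0.28, edgeR adjusted p = 4.06e-06). Cltc, the clathrin heavy chain, had 227 to 318 CPM at 4 h and 57.7 to 130 CPM in naive mice, a log2 fold change of 1.71. Mal2, a membrane traffic protein, had 24.9 to 45.8 CPM at 4 h and 0 to 7.97 CPM in naive mice, a log2 fold change of 2.95.

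Polr2a, the largest subunit of RNA polymerase II, had 40.7, 19.3, 47.9, 38.0 and 62.6 CPM at 4 h, against 8.08, 5.26, 8.84 and 6.98 CPM in naive mice (log2 fold change 2.49, SE 0.40, edgeR adjusted p = 8.01e-06). The groups did not overlap, with swum replicate 2 lowest and replicate 5 highest. Tbl1x, a subunit of corepressor complexes, had a log2 fold change of 1.99 (SE 0.30). Zyg11b, a substrate receptor of a cullin ubiquitin ligase, had one of 1.37 (SE 0.21).

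The 10 falling genes chosen in the same way were Cenpb, Ankrd24, Parp10, Slc35c1, Ppt2, Tlr9, Rassf3, Itga2b, Fmn2 and Anp32a. All 10 were called lower with the pair share as well. They were called lower under all 5 scalings except Rassf3 and Fmn2, which were called under 4 and kept their sign. Cenpb, a centromere-binding protein, had 23.8, 30.6, 17.6, 19.5 and 22.9 CPM at 4 h, against 128, 101, 89.8 and 68.8 CPM in naive mice. The swum libraries were all below the naive ones. Its log2 fold change was -2.08 (SE 0.24, edgeR adjusted p = 7.50e-07). Anp32a, an acidic nuclear phosphoprotein, had 213 to 368 CPM at 4 h and 656 to 1216 CPM in naive mice, a log2 fold change of -1.75. Tlr9, an endosomal DNA receptor of immune cells, had 3.34 to 12.2 CPM at 4 h and 27.6 to 85.4 CPM in naive mice (log2 fold change -2.70, SE 0.37). Itga2b, an integrin chain of platelets, had 4.84 to 8.94 CPM at 4 h and 22.9 to 32.3 CPM in naive mice (log2 fold change -2.12, SE 0.30). Of the 556 rows called lower in both fits, 33.3% had a gene of the opposite strand within 1000 bases. The share was 25.3% for the 843 rows called higher in both fits and 27.3% for all 4822 rows of the class. Whether reads that run past the end of a neighbouring gene reach these rows was not tested.

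Plk2, a kinase that tunes synapse strength after activity, had 142, 114, 124, 138 and 148 CPM at 4 h, against 26.5, 38.2, 61.2 and 51.8 CPM in naive mice. Homer1, whose short form uncouples postsynaptic glutamate receptors, had 83.2, 86.5, 101, 73.8 and 102 CPM at 4 h, against 13.8, 29.0, 39.5 and 36.9 CPM in naive mice. In both genes the lowest swum library lay above the highest naive one. Both lie on chromosome 13 of mm10, Plk2 (ENSMUSG00000021701) at 110395046 to 110400844 and Homer1 (ENSMUSG00000007617) at 93299635 to 93405129, on the plus strand and with no gene opposite. The log2 fold change was 1.56 (SE 0.22, edgeR adjusted p = 2.82e-06) for Plk2 and 1.55 (SE 0.23, adjusted p = 5.26e-06) for Homer1. The count table does not separate the short form of Homer1 from the long ones. With the pair share in the model the log2 fold changes were 0.97 (adjusted p = 0.000331) and 1.11 (adjusted p = 0.000679).

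Egr1, a zinc-finger transcription factor of the rapid wave, had 124, 141, 91.6, 91.9 and 153 CPM at 4 h, against 13.8, 51.3, 44.2 and 39.9 CPM in naive mice. Nr4a1, an orphan nuclear receptor of the same wave, had 15.9, 15.1, 11.4, 15.3 and 10.5 CPM at 4 h, against 1.15, 3.95, 2.72 and 1.99 CPM in naive mice. The groups were apart in both genes. The log2 fold change was 1.68 (SE 0.29, edgeR adjusted p = 1.55e-05) for Egr1 and 2.43 (SE 0.54, adjusted p = 0.000349) for Nr4a1. Once the pair share was in the model the adjusted p was 0.0155 for Egr1 and 0.106 for Nr4a1.

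Of the 28 genes listed as rapid immediate early genes, 20 had enough counts to be tested. Of these, 9 rose (Egr1, Junb, Egr3, Nr4a1, Fos, Ier5, Fosb, Jun and Arc), 3 fell (Egr4, Jund and Maff) and 8 were not called, against 29.0% of all rows called higher and 26.9% lower. Their median log2 fold change was 0.95, against 0.23 for all rows. Here and in the lists below, all rows include the antisense rows, of which 5.44% were called higher and 70.5% lower. Rows with no opposite gene had 38.4% called higher and 11.6% lower, with a median of 0.58. Egr1, Junb, Egr3, Nr4a1, Fos and Fosb were called higher under all 5 scalings, and the members called lower were not. Junb, a partner of Fos proteins with Prdx2 opposite, had 54.1 to 171 CPM at 4 h and 15.0 to 42.2 CPM in naive mice. Jun and Jund had deeper antisense rows. The Jun row held 20 to 75 counts at 4 h and 2 to 8 in naive libraries, against 265 to 354 and 183 to 399 on Junos. The Jund row held 63 to 180 and 51 to 100, against 2981 to 5084 and 2456 to 4116 on Gm11175. Npas4, a factor induced by calcium entry, was too low to test, with 3, 4, 4, 5 and 17 counts at 4 h and 0 counts in every naive library. Its scaled level was at least 2.78-fold higher at 4 h, with the naive group set at a floor of 3 counts. In the fit with the pair share, Egr1 was the member called higher and Egr4 and Dusp6 were called lower.

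Of the 28 delayed activity-regulated genes, 25 were tested, of which 10 rose, 3 fell and 12 were not called, with a median log2 fold change of 0.69. Over all rows 29.0% were called higher and 26.9% lower. The shares of this list were near the 38.4% and 11.6% of rows with no opposite gene, whose median was 0.58. Plk2, Homer1, Spred1, Rasgrp1, Dusp14 and Nr4a2 were called higher under all 5 scalings. Bdnf, a growth factor of neurons, and Nrn1, a surface protein that promotes neurite growth, were called higher with TMM but not under all 5. The lower members were Vgf, Sorcs3 and Gpr3. Spred1, an inhibitor of Ras-ERK signalling, had 83.2, 79.5, 79.5, 61.3 and 69.9 CPM at 4 h, against 21.9, 38.2, 31.3 and 32.9 CPM in naive mice (log2 fold change 1.26, SE 0.22, edgeR adjusted p = 1.62e-05). Vgf, a secretory granule neuropeptide precursor, had 44.9, 48.4, 39.4, 45.3 and 41.9 CPM at 4 h, against 111, 85.6, 83.0 and 81.7 CPM in naive mice. Its groups did not overlap, and its log2 fold change was -1.04 (SE 0.18, edgeR adjusted p = 2.45e-05), but it turned to 0.18 with TMM factors from antisense rows. Plk2, Homer1 and Spred1 were called higher and Vgf lower with the pair share.

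**Figure D3:**
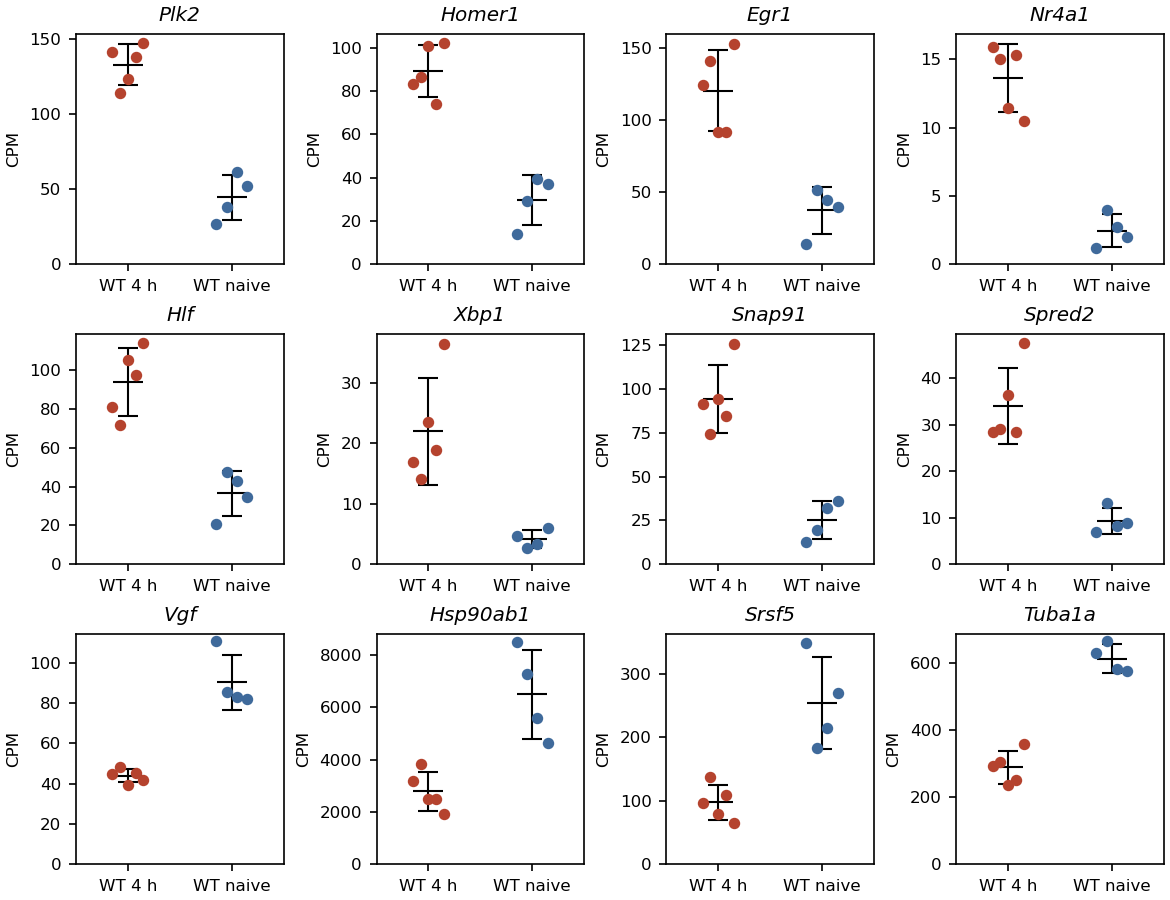
CPM (counts per M counts scaled by TMM, linear axes from 0) of 12 genes in each WT 4 h and WT naive library, with the mean ± SD as bars. In the upper 8 panels every WT 4 h library lies above every naive one, and in the lower 4 (Vgf, Hsp90ab1, Srsf5 and Tuba1a) every WT 4 h library lies below. The 12 genes were picked from the rows named in the text, and the share of all rows separated in this way is not given here.

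Many activity-regulated genes carry a cAMP response element, TGACGTCA, or its core TGACG before their start, where the factor CREB binds. The 250 bases before the RefSeq start (GRCm38.p6) of 3 genes that rose under all 5 scalings and hold the core, and of Spred1, which rose and does not, are shown with the core on either strand (TGACG or CGTCA) in capitals. Overlapping matches were joined. The windows are chr13:110394794-110395043 for Plk2, chr13:93303507-93303756 for Homer1 (the first of 2 annotated starts), chr15:101266596-101266845 for Nr4a1 and chr2:117120821-117121070 for Spred1, each on the plus strand and read 5′ to 3′.
Plk2: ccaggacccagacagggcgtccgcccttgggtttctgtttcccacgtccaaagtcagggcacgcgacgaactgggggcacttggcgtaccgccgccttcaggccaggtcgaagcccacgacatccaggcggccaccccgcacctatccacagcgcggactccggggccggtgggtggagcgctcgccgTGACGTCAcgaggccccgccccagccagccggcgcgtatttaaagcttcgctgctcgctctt
Homer1: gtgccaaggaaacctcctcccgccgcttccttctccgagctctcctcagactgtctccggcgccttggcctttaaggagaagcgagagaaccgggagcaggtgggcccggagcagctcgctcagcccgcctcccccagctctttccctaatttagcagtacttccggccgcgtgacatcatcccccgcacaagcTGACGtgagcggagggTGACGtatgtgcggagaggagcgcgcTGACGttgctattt
Nr4a1: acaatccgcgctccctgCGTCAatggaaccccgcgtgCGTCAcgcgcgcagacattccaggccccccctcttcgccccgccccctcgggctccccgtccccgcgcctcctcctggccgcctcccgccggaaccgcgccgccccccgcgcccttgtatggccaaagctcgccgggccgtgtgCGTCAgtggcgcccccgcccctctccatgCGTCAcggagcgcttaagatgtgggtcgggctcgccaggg
Spred1: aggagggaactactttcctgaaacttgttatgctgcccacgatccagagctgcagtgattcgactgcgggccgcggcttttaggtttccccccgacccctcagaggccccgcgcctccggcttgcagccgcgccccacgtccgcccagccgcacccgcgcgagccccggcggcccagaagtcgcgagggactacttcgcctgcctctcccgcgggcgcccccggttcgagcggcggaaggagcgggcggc

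Plk2 holds the full element once, which counts as 2 overlapping cores, Homer1 holds 3 cores and Nr4a1 holds 4. The core was found in 14 of the 21 rapid genes and 11 of the 20 delayed genes with a promoter in the RefSeq table, counting a gene once if any of its starts holds it, and in 19.8% of all 27025 genes counted so (17.8% of 32851 single promoters). Among genes with no opposite gene, it was found in 39.2% of the 669 called higher in both fits, 30.3% of the 406 called lower and 34.0% of all 3715 tested and matched. A match is only a run of letters and not a bound site.

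Of 28 genes known to respond to glucocorticoids, 19 were tested, of which 8 rose (Cdkn1a, Sesn1, Per1, Klf9, Tsc22d3, Fkbp5, Sgk1 and Rhob), 3 fell (Map3k6, Plin4 and Ddit4) and 8 were not called. Over all rows 29.0% were called higher and 26.9% lower. The median log2 fold change was 0.56. These values were near those of rows with no opposite gene, at 38.4% higher, 11.6% lower and a median of 0.58. Cdkn1a, an inhibitor of cell-cycle kinases that also has a gene opposite, had 13.6 to 27.9 CPM at 4 h and 3.40 to 6.98 CPM in naive mice (log2 fold change 1.82, SE 0.36, edgeR adjusted p = 8.82e-05). Cdkn1a and Per1 were called higher under all 5 scalings. With the pair share in the model their edgeR adjusted p was 0.0732 and 0.900, and 0 of the 19 members were called, where 3 had an unadjusted p below 0.05. The receptor genes Nr3c1 and Nr3c2 were not called, with log2 fold changes of 0.35 (SE 0.21) and -0.28 (SE 0.21).

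Of 22 clock genes, all tested, 14 were called higher, 1 lower and 7 not called, against 29.0% of all rows higher and 26.9% lower, and their median was 0.92. Once the pair share was in the model 3 were called higher (Bhlhe40, Hlf and Nr1d2) and 1 lower. Bhlhe40, Hlf, Tef, Nr1d2, Cry2, Per2, Npas2, Per1 and Per3 were called higher under all 5 scalings. Hlf, a bZIP factor under clock control, had 80.9, 72.0, 105, 97.5 and 114 CPM at 4 h, against 20.8, 47.4, 42.9 and 34.9 CPM in naive mice. Every swum library was above every naive one (log2 fold change 1.36, SE 0.25, edgeR adjusted p = 3.80e-05). Bhlhe40, a repressor of clock genes, had 39.7 to 87.6 CPM at 4 h and 13.8 to 26.5 CPM in naive mice (log2 fold change 1.59, SE 0.29). Its antisense row 0610040F04Rik was deeper, with 581 to 1244 counts at 4 h and 258 to 699 in naive libraries. The Bhlhe40 row held 114 to 525 and 12 to 39. Cry2 too had a deeper antisense row, with 581 to 1005 counts at 4 h against 81 to 392 on Cry2. Per3 had 65 counts in all at 4 h and 2 in naive libraries, a scaled ratio of 8.23 with an exact 95% counting interval from 2.19 to 69.4.

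Nr1d1, a nuclear receptor that represses clock genes, was the member called lower. It had 1990, 2714, 1653, 1933 and 1410 CPM at 4 h, against 8252, 7405, 5421 and 5247 CPM in naive mice. Its log2 fold change was -1.76 (SE 0.28, edgeR adjusted p = 7.34e-06), and it was called lower under all 5 scalings and with the pair share. The thyroid hormone receptor gene Thra overlaps it on the opposite strand, with 10164 counts in all at 4 h and 4939 in naive libraries, against 29100 and 26013 on the Nr1d1 row. Its relative Nr1d2, which has no opposite gene, was called higher (log2 fold change 1.10, SE 0.23). The sources used here do not give the hour of day of tissue collection, and swim and hour cannot be told apart where they differ.

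Of 21 heat shock chaperones tested, 4 rose (Dnajb1, Stip1, Hspa4l and Hspa8), 5 fell (Hspe1, Hsp90ab1, Hspa1a, Hspa1b and Cacybp) and 12 were not called, shares close to or below the 29.0% and 26.9% of all rows. The median log2 fold change was -0.35, and it ran from -0.79 to 0.87 over the 5 scalings, positive with library size only and with TMM factors from antisense rows. Less the median of all rows it was -0.58 to -0.56 under all 5, and -0.06 with the pair share. The subtraction cancels most of a change of scaling, so the narrow range under the 5 follows from it. Hsp90ab1, the constitutive cytosolic Hsp90, had 3177, 3847, 2502, 2481 and 1904 CPM at 4 h, against 8488, 7260, 5610 and 4654 CPM in naive mice. All swum libraries lay below all naive ones (log2 fold change -1.23, SE 0.23, edgeR adjusted p = 4.85e-05), and it was called under 4 of 5 scalings and with the pair share. Dnajb1, the cochaperone that loads Hsp70, had 58.4, 41.4, 55.1, 54.7 and 57.2 CPM at 4 h, against 12.7, 21.1, 36.1 and 23.9 CPM in naive mice (log2 fold change 1.14, SE 0.25, edgeR adjusted p = 0.000248). Hspa1a and Hspa1b are near-identical copies, so the split of counts between them is uncertain.

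Of 4 cold-inducible RNA-binding protein genes, Srsf5, Rbm3 and Rbmx were called lower and Cirbp was not called. Their median log2 fold change was -0.75, and it turned to 0.39 with TMM factors from antisense rows. Srsf5, a splicing factor, had 95.9, 137, 78.9, 109 and 65.8 CPM at 4 h, against 350, 183, 214 and 270 CPM in naive mice. Each swum library was below each naive one (log2 fold change -1.39, SE 0.23, edgeR adjusted p = 1.32e-05), and it was called under 4 of 5 scalings and with the pair share. Rbm3, a cold-shock protein of neurons, had 56.4 to 114 CPM at 4 h and 92.3 to 226 CPM in naive mice, so its groups overlapped. Its log2 fold change was -1.06 (SE 0.26), but 0.02 with TMM factors from antisense rows. The row opposite it, Rbm3os, had 494 to 914 counts at 4 h and 68 to 228 in naive libraries. Among antisense rows fitted alone, where 23.2% of 1533 were called higher and 17.9% lower, Rbm3os was higher (log2 fold change 1.70, SE 0.28).

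Among endoplasmic reticulum stress genes, the transcription factors Xbp1 and Atf4 were among the members that rose. Of 21 tested, 9 rose, 3 fell (Syvn1, Ddit3 and Canx) and 9 were not called, with a median log2 fold change of 0.40 that fell to -0.03 with TMM factors from rows with no opposite gene. Over all rows 29.0% were called higher and 26.9% lower. The shares of this list were near the 38.4% and 11.6% of rows with no opposite gene. Xbp1, the factor made active by splicing in the unfolded protein response, had 16.8, 14.1, 23.5, 18.8 and 36.4 CPM at 4 h, against 4.62, 2.63, 3.40 and 5.98 CPM in naive mice. All swum libraries were above all naive ones (log2 fold change 2.42, SE 0.37, edgeR adjusted p = 5.88e-06). The count table does not separate spliced from unspliced Xbp1. Atf4, the factor of the integrated stress response, had 29.9 to 38.7 CPM at 4 h and 7.90 to 16.9 CPM in naive mice (log2 fold change 1.24, SE 0.25).

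Herpud1, a membrane protein of the degradation complex, had 17, 5, 25, 17 and 99 counts at 4 h and 0, 1, 0 and 0 in naive libraries, a scaled ratio of 41.3 with an exact 95% counting interval from 7.30 to 1640. Xbp1, Atf4, Herpud1, Asns and Dnajb9 were called higher under all 5 scalings, and Xbp1, Herpud1, Dnajb9 and Manf with the pair share. The chaperone genes Hspa5 (log2 fold change 0.40, SE 0.29), Calr (-0.16, SE 0.22) and Hsp90b1 (-0.22, SE 0.25) were not called.

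Of 32 postsynaptic scaffold and kinase genes, 21 rose, 2 fell (Homer3 and Nlgn1) and 9 were not called, against 29.0% of all rows higher and 26.9% lower, with a median log2 fold change of 0.78. Sipa1l1, a spine protein that Plk2 marks for degradation, had 105 to 186 CPM at 4 h and 52.8 to 61.2 CPM in naive mice (log2 fold change 1.33, SE 0.22, edgeR adjusted p = 1.43e-05). Homer3, a scaffold with Ddx49 on the opposite strand, had 242 ± 66.2 CPM at 4 h (SD, n = 5) and 721 ± 168 CPM in naive mice (SD, n = 4), a log2 fold change of -1.58 (SE 0.25). Of 36 presynaptic release genes, 26 rose, 2 fell (Syt1 and Syp) and 8 were not called, with a median of 0.66. Synapsin Syn2, with Timp4 opposite, had 237 to 456 CPM at 4 h and 94.6 to 147 CPM in naive mice (log2 fold change 1.55, SE 0.24, edgeR adjusted p = 7.29e-06). Nsf, the ATPase that recycles SNARE complexes, had 363 to 666 CPM at 4 h and 150 to 217 CPM in naive mice (log2 fold change 1.34, SE 0.24). Syn2, Synj1, Dnm1 and Nsf were called higher under all 5 scalings. They were also the 4 presynaptic genes called higher with the pair share, where 2 postsynaptic genes were called higher (Homer1 and Sipa1l1) and Homer3 lower.

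Of 15 glutamate receptor genes, 2 rose (Grin1 and Grik5), 2 fell (Grin2d and Grm7) and 11 were not called, against 29.0% of all rows higher and 26.9% lower, with a median of 0.27. The antisense row Grin1os held 2288 to 3639 counts at 4 h, against 53 to 206 on Grin1. Of 11 GABA-A receptor subunits, 3 rose, 1 fell (Gabrg3) and 7 were not called, with a median of 0.19. Both medians were below 0 with TMM factors from rows with no opposite gene, at -0.17 and -0.26. Of 41 voltage-gated channel genes, 18 rose, 2 fell (Kcna1 and Hcn2) and 21 were not called, with a median of 0.51. Kcnq3, a potassium channel of the M current, had 33.4 ± 6.27 CPM at 4 h (SD, n = 5) and 10.4 ± 1.51 CPM in naive mice (SD, n = 4). It rose by 1.68 on the log2 scale (SE 0.32, edgeR adjusted p = 5.25e-05).

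Regulators of Ras-ERK signalling were mostly called higher. Of 29 tested, 17 rose and 12 were not called, against 29.0% of all rows called higher, with a median log2 fold change of 1.05, and 12 were called higher under all 5 scalings. Of the 16 members with no opposite gene fitted alone, 9 were called higher and 1 lower, against 19.8% and 22.6% of that class. Spred2, an inhibitor of Ras-ERK signalling like Spred1, had 28.5, 29.2, 36.5, 28.6 and 47.6 CPM at 4 h, against 6.92, 13.2, 8.16 and 8.97 CPM in naive mice. Swum libraries all lay above naive ones (log2 fold change 1.91, SE 0.30, edgeR adjusted p = 6.58e-06). Rasal1, a GTPase activator that turns Ras off, had 14.6 to 29.9 CPM at 4 h and 2.31 to 7.48 CPM in naive mice (log2 fold change 1.96, SE 0.37). In the fit with the pair share, Spred1 and Spred2 were called higher and Dusp6, an ERK phosphatase, was called lower. Of 39 calcium and cAMP signalling genes, 20 rose, 3 fell (Calm2, Adcy8 and Akap5) and 16 were not called, with a median of 0.47. Rcan1, an inhibitor of calcineurin that calcineurin itself induces, had 38.5 to 52.2 CPM at 4 h and 13.8 to 22.4 CPM in naive mice (log2 fold change 1.35, SE 0.26).

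Of 37 chromatin regulators, 17 rose, 2 fell (Chd4 and Setd1a) and 18 were not called, with a median of 0.54. Crebbp, a histone acetyltransferase that CREB recruits, had 10.3 to 16.6 CPM at 4 h and 2.72 to 4.98 CPM in naive mice (log2 fold change 1.85, SE 0.38). Of 42 splicing factors, 14 rose and 12 fell, shares close to the 29.0% and 26.9% of all rows, with a median of 0.14 that turned to -0.33 with TMM factors from rows with no opposite gene. In the fit of rows with no opposite gene alone, 4 of 21 splicing factors were called higher and 10 lower, with a median of -0.44 against 0.09 for the class. The members called lower there were Srsf5, Srsf11, Luc7l3 and the Hnrnp genes Hnrnpa3, Hnrnpa2b1, Hnrnpm, Hnrnpdl, Hnrnpa1, Hnrnpc and Hnrnph1. Hnrnpa2b1, a packaging protein of nuclear RNA, had 206 to 385 CPM at 4 h and 610 to 826 CPM in naive mice (log2 fold change -1.18, SE 0.21, edgeR adjusted p = 2.68e-05). The neuronal splicing factors Rbfox1, Rbfox2, Nova1 and Nova2 were among those called higher under all 5 scalings. Of 38 translation factors, 24 rose, 3 fell (Eif3a, Eif5 and Eif4b) and 11 were not called, with a median of 0.72. Eef2, the translocase of elongation, had 135 to 408 CPM at 4 h and 38.1 to 87.7 CPM in naive mice (log2 fold change 1.95, SE 0.33, edgeR adjusted p = 1.60e-05).

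Of 77 nuclear oxidative phosphorylation genes, 51 rose, 3 fell (Atp5f1, Ndufs3 and Ndufa5) and 23 were not called, against 29.0% of all rows higher and 26.9% lower, with a median log2 fold change of 1.09. Less the median of all rows it was 0.85 to 0.90 under the 5 scalings, a narrow range that follows from the subtraction, which cancels most of a change of scaling. Under all 5 scalings 30 members were called higher. Of the 49 members with no opposite gene, 23 were called higher and 2 lower when the class was fitted alone, with a median of 0.79 against 0.09. Sdhb, the iron-sulphur subunit of succinate dehydrogenase, had 22.9, 19.3, 25.1, 31.3 and 41.9 CPM at 4 h, against 6.92, 9.21, 8.16 and 3.99 CPM in naive mice (log2 fold change 2.01, SE 0.39, edgeR adjusted p = 6.40e-05). The groups did not overlap, and swum replicate 5 was highest. With the pair share, 1 of the 77 (Atp5j) was called higher, and the median was 0.14 against 0.07 for all rows (edgeR).

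Cytosolic ribosomal proteins, which build both ribosome subunits, had a median of 1.02. Against 29.0% of all rows higher and 26.9% lower, 40 of 76 were called higher, 8 lower and 28 not called. Of these, 26 were called higher and 3 lower (Rps28, Rps25 and Rpl15) under all 5 scalings. In that fit with the pair share, 2 were called higher (Rpl23a and Rpl17) and the same 3 lower. Rpl15, with Nkiras1 opposite, had 400, 585, 358, 319 and 223 CPM at 4 h, against 1644, 1457, 1018 and 901 CPM in naive mice (log2 fold change -1.74, SE 0.29, edgeR adjusted p = 1.53e-05). Ribosomal protein genes have many near-identical pseudogenes, so the split of their counts is uncertain. Of 33 proteasome subunits, 20 rose and 2 fell (Psmd13 and Psmd7), with a median of 0.93. Of 20 glycolysis genes, 12 rose and 2 fell (Slc16a3 and Hk1), with a median of 1.01.

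Pfkl, a phosphofructokinase subunit, had 63.6, 41.9, 98.4, 78.7 and 155 CPM at 4 h, against 13.8, 19.7, 17.0 and 15.9 CPM in naive mice (log2 fold change 2.41, SE 0.39, edgeR adjusted p = 8.94e-06). It was called higher with the pair share as well. Of 10 mitochondrially encoded mRNAs, 4 rose (mt-Co1, mt-Nd4, mt-Nd1 and mt-Co3) and mt-Nd6 fell, against 29.0% of all rows higher and 26.9% lower. The counts of mt-Co3 were 2, 0, 6, 7 and 25 at 4 h and 0 in naive libraries. In the fit with the pair share, 0 of the 10 were called. Of 20 sterol synthesis genes, 6 rose and Tm7sf2 fell, with a median of 0.79, but 1 of 10 with no opposite gene was called higher and 2 lower (Tm7sf2 and Insig1) when fitted alone.

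Of 30 neurofilament and microtubule genes, 11 rose, 4 fell (Tuba1a, Nefl, Nefm and Tuba4a) and 15 were not called, with a median of 0.46. Over all rows 29.0% were called higher and 26.9% lower. The shares of this list are near the 38.4% and 11.6% of rows with no opposite gene. Tuba1a, an alpha-tubulin of growing neurons, had 292, 306, 236, 251 and 360 CPM at 4 h, against 629, 666, 584 and 575 CPM in naive mice. The groups were far apart (log2 fold change -1.08, SE 0.17, edgeR adjusted p = 7.80e-06), it was also called lower with the pair share (adjusted p = 2.16e-06), but it turned to 0.17 with TMM factors from antisense rows. Tubb4a, a beta-tubulin also made by oligodendrocytes, had 221, 163, 286, 265 and 682 CPM at 4 h, against 65.8, 67.1, 83.7 and 64.8 CPM in naive mice (edgeR adjusted p = 3.49e-05). Swum replicate 5 was far above the other libraries, and with the pair share the edgeR adjusted p was 0.315. Tubulin genes share long stretches of sequence, so their split is uncertain. Of 9 nuclear long noncoding RNAs, Peg13 and Pantr1 rose, Miat and Meg3 fell and 5 were not called.

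**Figure D4:**
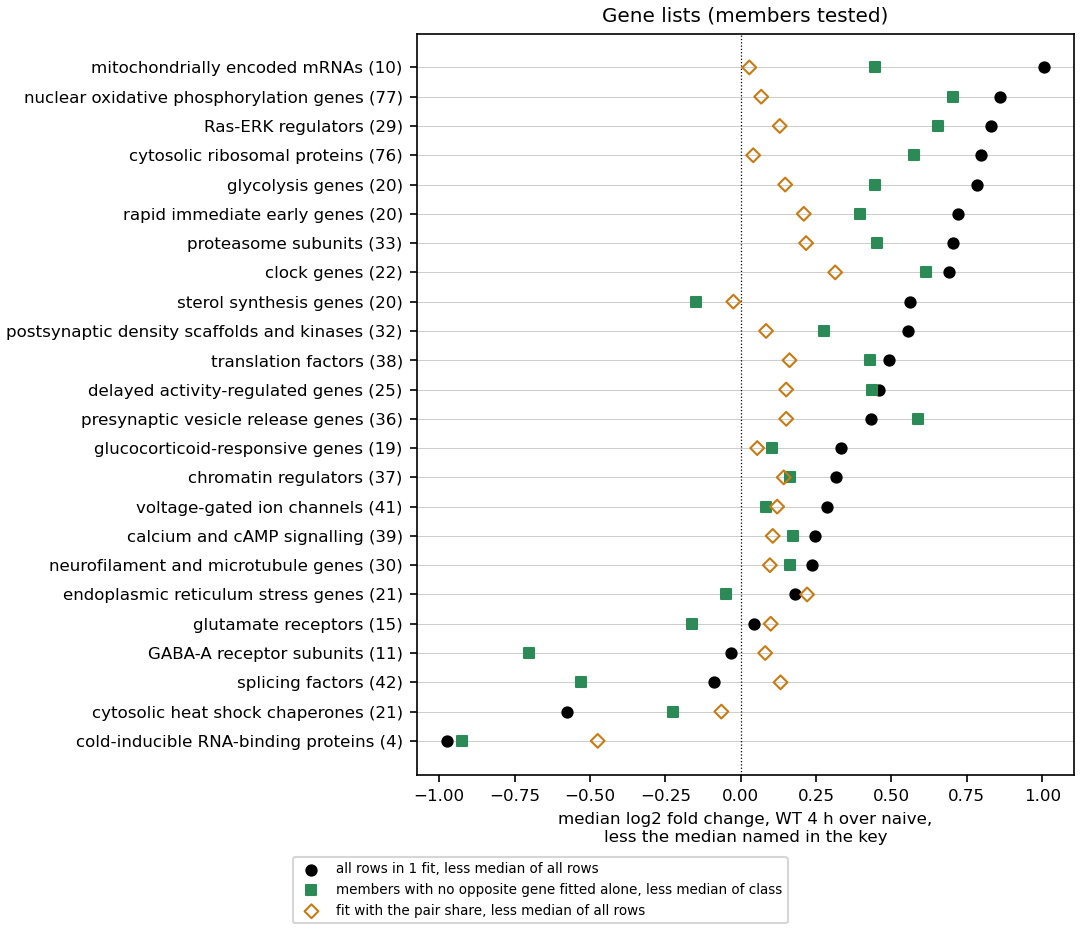
Median log2 fold change of WT 4 h over naive for each of 24 gene lists (number of members tested in brackets), less the median of all rows in the fit of all rows (circles), less the median of the class for members with no opposite gene fitted alone (squares), and less the median of all rows with the pair share as a covariate (diamonds). Oxidative phosphorylation genes lie 0.86 above all rows and 0.07 above them with the pair share, and chaperones 0.58 and 0.06 below.

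Markers of pyramidal neurons were well detected, and most markers of other cells were sparse, but the microglia marker Csf1r was not. The 18 pyramidal markers summed to 3717 to 5505 CPM at 4 h and 2318 to 3266 CPM in naive libraries, with 9 called higher, 3 lower, among them Neurod2, and a median of 0.69. Over all rows 29.0% were called higher and 26.9% lower. Slc17a7, the vesicular glutamate transporter of cortical excitatory neurons, had 102 to 259 CPM at 4 h and 39.2 to 98.7 CPM in naive mice (log2 fold change 1.29, SE 0.26, edgeR adjusted p = 0.000108). Interneuron markers summed to 37.9 to 66.9 CPM at 4 h and 64.6 to 88.2 CPM in naive libraries, and Dlx1 alone among 5 tested was called, lower (log2 fold change -1.49, SE 0.26). The median over the 5 was 0.87, since the other 4 had log2 fold changes of 0.71 to 1.69 and were not called. Fewer cells of a type and less RNA per cell cannot be told apart in these bulk samples.

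Astrocyte markers summed to 178 to 247 CPM at 4 h and 99.2 to 202 CPM in naive libraries, with 4 of 10 called higher (Slc1a2, S100b, Aldoc and Clu). Oligodendrocyte markers summed to 161 to 309 CPM at 4 h and 112 to 140 CPM in naive libraries, with 3 of 6 called higher (Mbp, Cnp and Mobp). Over all rows 29.0% were called higher and 26.9% lower. In the fit with the pair share 1 astrocyte marker (Slc1a2) was called, higher, and 0 oligodendrocyte markers, where 2 had an unadjusted p below 0.05 (edgeR). Mbp, the myelin basic protein gene, had 39.7 to 77.1 CPM at 4 h and 13.8 to 27.6 CPM in naive mice (log2 fold change 1.25, SE 0.25). The glial score, a mean centred log2 CPM over 19 measured glial markers, was 0.449 ± 0.146 (SD, n = 5) at 4 h and -0.269 ± 0.270 (SD, n = 4) in naive mice (exact two-sided permutation p = 0.0159). The difference was 0.718, and 1.42 with library size only. For comparison, the median log2 fold change was 0.69 for pyramidal markers and 0.58 for rows with no opposite gene. Fitted alone, 0 of 3 astrocyte and 0 of 3 oligodendrocyte markers with no opposite gene were called. The part of the glial score in the rises given here was not tested. Microglia markers summed to 176 to 398 CPM at 4 h and 584 to 887 CPM in naive libraries, most of it on Csf1r. Among them, P2ry12, Itgam and Ly86 had 0 counts in all 9 libraries. Csf1r, a receptor of microglia with Hmgxb3 opposite, had 167 to 384 CPM at 4 h and 575 to 869 CPM in naive mice. Cldn5, Ly6c1, Ly6a and Kcnj8 of the endothelial and mural list had 0 counts in all 9. Slc7a5 of that list had 35 counts at 4 h and 0 in naive libraries, at least 2.95-fold higher. Ttr, the main choroid plexus marker, had 2, 0, 1, 10 and 24 counts at 4 h and 0 in naive libraries. Of 5 striatal markers tested, 1 rose (Pde10a) and 1 fell. Of 2 hippocampal markers, Wfs1 rose. The oligodendrocyte precursor marker Gpr17 fell, and the 3 sex-linked genes tested were not called (median log2 fold change 0.13).

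The antisense rows with the most counts lay opposite Syp, Chn1 and Tspyl4. The row of Gm14703 held 12722, 16155, 13435, 14714 and 17285 counts at 4 h, against 15504, 13765, 18706 and 16235 in naive libraries. The row of Syp, the synaptic vesicle protein synaptophysin on the other strand, held 885 to 2163 counts at 4 h and 415 to 892 in naive libraries. The Syp row thus took 5.29% to 11.1% of the pair at 4 h and 2.61% to 5.21% in naive libraries. For Chn1, a Rac regulator of neurons, and the row Chn1os3 the coding percent was 10.9% to 19.7% at 4 h and 3.08% to 8.12% in naive libraries. For Tspyl4 and Gm47512 it was 2.96% to 9.10% at 4 h and 1.48% to 2.52% in naive libraries. The groups did not overlap in any of these 3 pairs, and came nearest in Syp.

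Of 1318 pairs with both rows tested, the coding row had the higher log2 fold change in 1080, or 81.9%. The medians were 0.27 for coding rows and -1.13 for antisense rows. Both rows were called higher in 30 pairs and both lower in 201, the coding row higher and the antisense row lower in 284, and the reverse in 8. Fitted alone, antisense rows opposite long genes lay above those opposite short ones. Their median log2 fold change was -0.18 for coding partners under 10 kb, -0.15 from 10 to 30 kb, 0.08 from 30 to 100 kb and 0.18 over 100 kb. For coding rows with no opposite gene fitted alone, the medians over the same spans were 0.00, 0.09, 0.23 and 0.23.

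**Figure D5:**
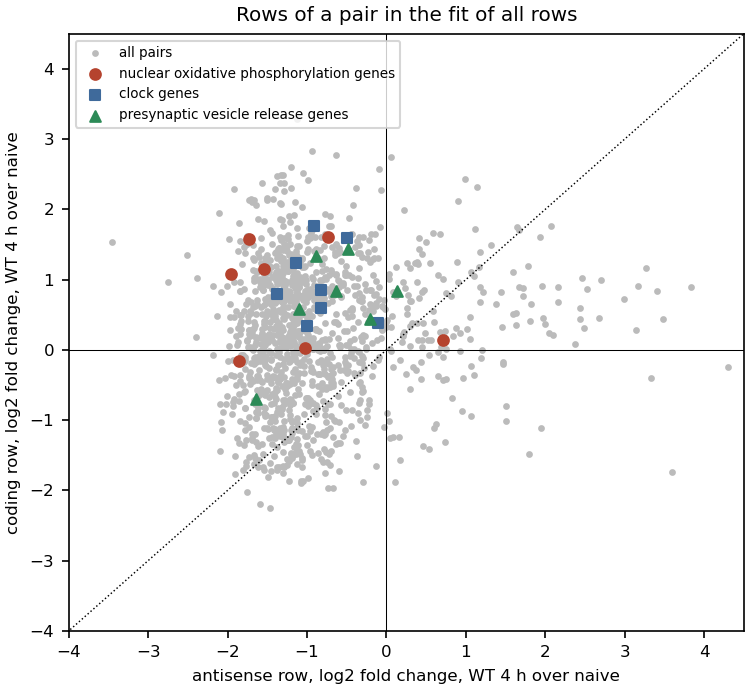
Log2 fold change of WT 4 h over naive of the coding row (vertical) against that of its antisense row (horizontal) for 1318 pairs in the fit of all rows, with 3 gene lists marked; the dotted diagonal is equality. In 81.9% of pairs the coding row lies above the diagonal, around medians of 0.27 for coding and -1.13 for antisense rows.

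The rows of each pair were then summed, so that the split within a pair no longer counts. Of 10067 units, 28.9% were called higher and 27.2% lower. Of the 1833 summed pairs among these units, 9.77% were called higher and 60.5% lower. The other units were single rows, some with another gene opposite, and they shared the scaling with the pairs. Fitted alone with their own scaling, 30.0% of 1835 pairs were called higher and 26.9% lower, so the calls of pairs depend on the scaling. The 8 rising pairs with the smallest p, named by their coding gene, were D5Ertd579e, Lrrc40, Hectd2, Cadm2, Sorbs2, Arhgef12, Fgf14 and Ap1g1. Sorbs2, a spine and actin adaptor, with its row Sorbs2os, had 111, 111, 120, 113 and 106 CPM at 4 h, against 46.0, 27.5, 61.7 and 44.2 CPM in naive mice. The groups did not overlap (log2 fold change 1.30, SE 0.19, edgeR adjusted p = 2.84e-06). Cadm2, a synaptic adhesion molecule, with its row had 46.6 to 68.3 CPM at 4 h and 7.85 to 19.0 CPM in naive mice (log2 fold change 2.05, SE 0.31). The 8 falling pairs were led by Zmynd10, Bloc1s5, Tmem219 and Mknk1, a kinase downstream of ERK, which had 53.1 to 86.9 CPM at 4 h and 175 to 325 CPM in naive mice (log2 fold change -1.76, SE 0.22). All 16 pairs were called the same way when pairs were fitted alone and with the pair share.

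The response was set beside that of WT mice at 1 h, which were compared with naive mice of cohort 1, so time and cohort cannot be told apart in this difference. At 1 h, 16.9% of rows were called higher and 17.3% lower. Of the calls at 4 h, 2924 had the same direction at 1 h, 46.0% of the calls at 4 h and 75.4% of those at 1 h, and 20 the opposite. The pair share was 15.5% to 21.3% at 1 h and 14.8% to 15.6% in naive mice of cohort 1. Its part in the shared directions was not tested. The difference itself was called higher for 0.115% and lower for 0.212% of rows, 13 and 24 rows. Without 1 library at a time the counts were 5 to 21 and 10 to 61, highest for both without swum replicate 2 and lowest for both without naive replicate 7, with 5 higher also without swum replicate 3. Araf, a Raf kinase with Syn1 opposite, had 185 to 329 CPM at 4 h and 260 to 539 CPM in naive mice of cohort 2, and 354 to 585 CPM at 1 h and 137 to 193 CPM in naive mice of cohort 1. Its log2 fold change was -0.65 at 4 h and 1.59 at 1 h, a difference of -2.24 (SE 0.36, edgeR adjusted p = 0.00222), but its change at 4 h turned to 0.03 with library size only and to 0.42 with TMM factors from antisense rows. Pdzd9, with the respiratory chain gene Uqcrc2 opposite, had 61.1 to 298 CPM at 4 h and 41.5 to 69.2 CPM in naive mice of cohort 2, and 38.9 to 65.6 CPM at 1 h and 61.2 to 76.1 CPM in naive mice of cohort 1 (difference 2.53, SE 0.48, edgeR adjusted p = 0.00828).

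Activity genes were not called different between the times. Plk2 had a log2 fold change of 1.56 at 4 h and 1.79 at 1 h (difference -0.23, SE 0.34), Egr1 of 1.68 and 1.71 (difference -0.03, SE 0.42), and Homer1 of 1.55 and 0.63 (difference 0.92, SE 0.37, edgeR adjusted p = 0.261). A p that misses the threshold does not show that the times act alike.

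Shank3(ΔC/+) mice at 4 h were compared with their own naive mice of cohort 2, so the 2 responses share no library. There 32.7% of rows were called higher and 29.4% lower. Of the WT calls, 5476 had the same direction, 86.2% of the WT calls and 77.8% of the Shank3(ΔC/+) calls, and 1 the opposite. The difference of the responses was called for 0.0% of rows in either direction with edgeR, where 302 rows had an unadjusted p below 0.05, and limma voom called 0 and DESeq2 1. The row with the smallest adjusted p was Slc7a11, the cystine and glutamate exchanger, with 4.70 to 13.9 CPM at 4 h and 3.95 to 36.7 CPM in naive WT mice. Its log2 fold change was -1.44 in WT mice and 2.93 in Shank3(ΔC/+) mice (difference -4.37, SE 0.82, edgeR adjusted p = 0.0615).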

How the data were processed

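Ribosome-bound RNA of 36 libraries was measured by paired-end sequencing of 100 bp reads from a stranded mRNA kit, per the labels' protocols. The authors deposited 1 table of raw read counts per library, with 55470 gene rows each. The submitters' processing notes name HISAT2 2.2.0 and Trimmomatic 0.39, Salmon 1.4, StringTie 2.1.3, FastQC, DESeq2 and the build mm10. Whether counting used the strand is not given in the sources used here, and near-identical genes may share counts.

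All 36 libraries entered 1 model with 8 groups (genotype, treatment and cohort) in edgeR 4.0.16 (R 4.3.3), with TMM scaling, its expression filter, the robust quasi-likelihood test, 28 residual degrees of freedom and Benjamini-Hochberg adjustment over all rows tested. Fold changes are swim over naive. The 9 libraries held 0.957 to 3.52 M counts, which limits the precision for rows with few counts, and intervals and floors cover counting error only. Libraries are not tied to named animals, so the spread behind each p-value may be technical. Of 16 pairs of libraries within a group, the chi-square per degree of freedom was at least 1.86, so none counted as a repeat. Row classes come from the GENCODE annotation, and 0.0387% of counts lay on rows without a position.

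Named rows are the 10 rising and 10 falling rows with no opposite gene and the smallest p, called in both fits with mean log2 CPM no lower than 1, 8 summed pairs a direction, up to 4 members of each list by p, the 5 smallest p of each difference, and the 4 antisense rows with the most counts. Other members are named because they were called. The members and the 37 lists were chosen with earlier results of these data known. Alternatives were 4 other scalings, DESeq2 1.42.0, limma 3.58.1, filters, a fit with the pair share, classes alone, a replicate block and leaving out each library. The scripts were tested on simulated data. Some members of the lists are counted but not reported by name here.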

Additional observations from a re-analysis of the deposited data

Results flagged for a closer look

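Of 186 groups of 4 or 5 libraries checked, 13 had a library apart from the others of its group, and chance alone would flag about 1 in 20. At 4 h, the library apart was the highest for total counts (3.52 M), Egr3 (98.8 CPM), Dnm1 (878 CPM) and Tubb4a (682 CPM) and the lowest for Dnajb1 (41.4 CPM). In naive mice, it was the highest for Parp10 (95.8 CPM), Tlr9 (85.4 CPM), Rassf3 (76.9 CPM), Vgf (111 CPM), Tubb4a (83.7 CPM) and Pdzd9 (69.2 CPM) and the lowest for Rpl23a (3.46 CPM) and Mbp (13.8 CPM).

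The response at 4 h differed from that at 1 h in 5 named rows by the test of the difference in edgeR. The difference of the log2 fold changes was -2.24 for Araf, 2.84 for Gm37401 (opposite Rhoa), -3.19 for Gm49190, 2.53 for Pdzd9 and 4.12 for Gm16973 (opposite Mphosph8). Time and cohort cannot be told apart in these values. Fitted with other settings, the number of rows called for this difference changed by over 1.5 times, as given with the processing.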

How the results depend on the processing

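Counts of called rows depended on scaling. Rows called higher at 4 h numbered 3294 with TMM, 6478 with library size only, 7761 with TMM from antisense rows, 1484 with TMM from rows with no opposite gene, 586 with the pair share, 843 with rows with no opposite gene alone and 355 with antisense rows alone. Rows called lower numbered 3056 with TMM, 1384 with library size only, 649 with TMM from antisense rows, 4110 with TMM from rows with no opposite gene, 602 with the pair share, 962 with rows with no opposite gene alone and 275 with antisense rows alone. Summed pairs and other units called higher were 2910, with 5836 by library size only, 478 with the pair share and 550 with pairs alone, and those called lower were 2739, with 1167, 587 and 494. The cause was not tested. Leaving out 1 library at a time gave 2492 to 3499 rows called higher and 2606 to 3202 called lower, and a difference in total counts of 0.634 to 1.14 M.

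The difference between 4 h and 1 h, 13 rows higher and 24 lower, was 6 and 13 with library size only and 62 and 133 with the pair share. Without 1 library it was 5 to 21 higher and 10 to 61 lower, the most without swum replicate 2 and the fewest lower without naive replicate 7. The difference between WT and Shank3(ΔC/+), 0 rows lower, was 0 to 1 row without 1 library.

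Of 1839 values of 89 named genes under the alternatives, 1738 kept direction and side of the threshold, 84 lost the call, 4 gained it and 13 reversed. With TMM from antisense rows the log2 fold change turned to 0.18 for Vgf, 0.0172 for Rbm3, 0.77 for Rbmx, 0.38 for Kcna1, 0.17 for Tuba1a, 0.37 for Neurod2, 0.0661 for Chn1os3, 0.44 for Syp and 0.42 for Araf. With library size only it turned to 0.32 for Rbmx, 0.0186 for Syp and 0.0307 for Araf, and with antisense rows alone to 0.0583 for Chn1os3.

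Replicate numbers 4 and 5 occur in both groups, and the deviations of the same-numbered libraries correlated at -0.019 and -0.127, so the numbers were not taken as pairs. With the replicate number as a block, 2422 rows were called higher and 2724 lower, 2151 and 2452 among summed units, and 0 and 0 for the difference between 4 h and 1 h.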
